A study of Mus musculus with 6 samples.

Results

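The TNF superfamily comprises the ligands related to tumour necrosis factor and their receptors. Its members were taken here as the genes whose symbol begins with Tnfrsf or Tnfsf, together with Cd27, Cd40, Cd40lg, Cd70, Fas, Ltbr, Lta, Ltb, Tnf and Eda2r. Of 19938 genes tested, 39 were members, 25 receptors and 14 ligands, each with 1 probe set. Tnfsf12 and Tnfsf13, which share a probe set with the read-through gene Tnfsfm13, were not counted. RNA was measured on 6 arrays of CD4 single-positive thymocytes, a late stage of T cell development in which CD4 is still carried and CD8 no longer is. All samples were male and on the C57BL/6 background. The 3 wildtype samples were Ly5.1+ and the 3 Bach2 knockout samples were Ly5.1-, where Ly5.1 is an allele of the surface protein CD45 (gene Ptprc) that served to sort the genotypes. Both kinds of cell had developed together in Rag1 knockout hosts, which cannot form T or B cells from their own marrow. The hosts were males aged 8 weeks, lethally irradiated and given equal parts of lineage-depleted marrow from male wildtype and knockout donors of 8 weeks. The thymi were taken 2 months after transfer. The design text calls the 3 samples of each genotype biological replicates from separate mice, so that p-values measure the spread between these mice. Which exons of Bach2 were deleted is not known here. The Bach2 protein is a basic leucine zipper repressor of transcription.

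TNF family ligands are mostly membrane proteins that assemble as trimers, and each binds 1 or a few receptors. Receptors without a death domain recruit TRAF adaptors and activate NF-kB and MAP kinases, receptors with a death domain can activate caspase 8, and decoy receptors bind ligand without passing on a signal. In the thymus, CD4 single-positive cells display RANK ligand (Tnfsf11), CD40 ligand and lymphotoxin to the epithelium of the medulla, whose growth depends on them. Developing regulatory T cells carry the costimulatory receptors GITR (Tnfrsf18) and OX40 (Tnfrsf4).

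The values are on a log2 scale and can be compared between arrays for 1 probe set, but not between probe sets. Array medians lay between 4.93 and 4.97, and 16 of the 39 members had a mean at or below 4.93, the median of all probe sets, where signal from other transcripts may weigh more. Arrays give no read depth, and their number limits the precision. Bach2 was at 7.89, 8.20 and 8.05 on the wildtype arrays and at 6.50, 6.42 and 6.52 on those of the knockout, 2.96-fold lower (limma, adjusted p = 0.000156). The CD4 lineage genes Cd4, Cd3e, Cd3d, Cd5 and Zbtb7b lay between 8.95 and 11.48 on the log2 scale, and 0 of the 5 passed the test in either direction (limma; 0 at an unadjusted p under 0.05). A pair of arrays stood apart in markers of other cells. Knockout replicate 3 was highest in Cd8a (8.90, against 7.67 to 7.90 on the other 5 arrays) and in the mean of 5 genes of immature thymocytes (7.56, against 6.29 to 6.99), and wildtype replicate 1 was lowest of its genotype in regulatory T cell markers. Members whose call turned without either array are named with that value. Of the 5 immature thymocyte genes 0 passed between genotypes, and 3 had an unadjusted p under 0.05 (limma, 6.91% of all genes). Rag1 and Ptcra were higher in the knockout, by 1.27 and 0.33, and Cd24a was lower (difference -0.58). RNA of the CD8 genes was above the median of all probe sets on all 6 arrays, with Cd8a at 7.67 to 8.90 and Cd8b1 at 8.77 to 9.55. The alleles around Ptprc and Bach2 go together with genotype. Tnfsf4 and Tnfsf18 belonged, by gene order, to the 300 tested genes closest to Ptprc. Of the 9 members on the chromosome of Bach2, 0 were among the 238 tested genes nearest to it, and the closest, Tnfsf15, was 249 tested genes away.

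Receptors of the death and decoy group held both members that changed in the knockout. Tnfrsf26, an orphan receptor of the mouse, rose 1.93-fold, and Tnfrsf23, a decoy receptor for the death ligand TRAIL, rose 1.59-fold. The costimulatory receptors Tnfrsf9 and Tnfrsf4 were lower on every knockout array without passing the test. Most ligands, among them Tnfsf11, Ltb and Cd70, differed by less than 0.2 on the log2 scale. By limma with Benjamini-Hochberg adjustment over all genes, 2 members were higher, where 0.351% of all genes tested were, and 0 were lower, where 0.216% were (0.567% in either direction). An unadjusted p under 0.05 was reached by 4 members that were higher (3.04% of all genes) and 2 that were lower (3.87%), where 6.91% of all genes reached it in either direction. All 3 knockout values lay above all 3 wildtype values for 7 members (5.13% of all genes) and below them for 2 (6.57%; either way 11.7%), and the genotypes overlapped for the other 30 members. The median difference, knockout minus wildtype, was 0.07 over the members and -0.01 over all genes.

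**Figure D1:**
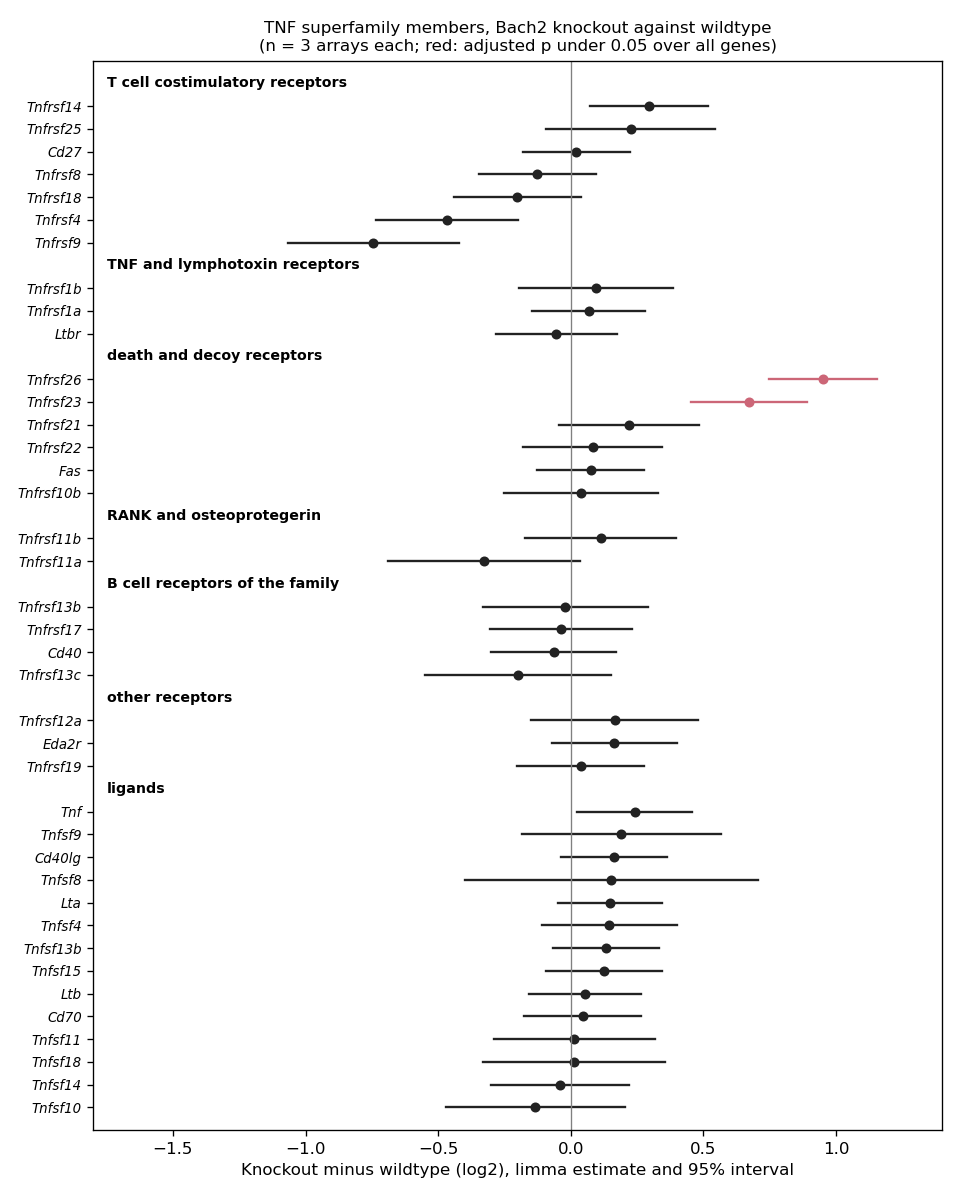
Knockout minus wildtype difference on the log2 scale for each of the 39 members, grouped by role, as the limma estimate (point) with its 95% interval (line), from 3 arrays of each genotype. Tnfrsf26 at 0.95 and Tnfrsf23 at 0.67, in red, passed the test over all genes; Tnfrsf9 at -0.74 lay furthest below 0.

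Tnfrsf26 (probe set 10569485) was at 7.87, 7.97 and 8.01 in wildtype replicates 1 to 3 and at 8.93, 8.91 and 8.87 in knockout replicates 1 to 3. The lowest knockout array was thus well above the highest wildtype array, and each genotype kept within a narrow range. The means were 7.95 ± 0.08 and 8.90 ± 0.03 (SD, n = 3 each), a difference of 0.95 ± 0.09 (limma standard error) with a 95% interval from 0.75 to 1.15 and an adjusted p of 0.00136. Among all genes tested its p ranked 15. Tnfrsf26 passed in all 6 fits that left out an array, with adjusted p from 0.00406 to 0.0119, and in all 9 other alternatives, with adjusted p from 5.8e-05 to 0.0233.

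Tnfrsf23 (probe set 10569504) was at 4.21, 4.14 and 4.33 in wildtype and at 4.81, 4.96 and 4.93 in knockout arrays. The genotypes did not overlap, although the mean over the 6 arrays lay below the median of all probe sets. The means were 4.23 ± 0.10 and 4.90 ± 0.08 (SD, n = 3 each), a difference of 0.67 ± 0.10 with an interval from 0.45 to 0.89 (limma, adjusted p = 0.0144). Its call was lost without knockout replicate 2 (adjusted p = 0.091), without knockout replicate 3 (0.0857) and when all 35556 probe sets entered the fit (0.129). The adjusted p without each other array was 0.0338 to 0.0473.

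Tnfrsf26, Tnfrsf22 and Tnfrsf23 are consecutive tested genes on chromosome 7 in a RefSeq gene table. Tnfrsf22, the middle gene and a decoy TRAIL receptor as well, was at 6.816, 7.108 and 6.896 in wildtype and at 6.881, 7.191 and 6.996 in knockout arrays. These values overlap, and the difference of 0.08 had an interval from -0.18 to 0.34 (limma, adjusted p = 0.985), which does not reach the estimate of either neighbour. Within each array, the log2 ratio of Tnfrsf26 to Tnfrsf22 was 1.01 ± 0.13 in wildtype and 1.88 ± 0.16 in knockout samples (SD, n = 3 each; exact permutation test, two-sided, p = 0.1). For Tnfrsf23 against Tnfrsf22 the ratio was -2.71 ± 0.22 and -2.12 ± 0.09 (exact permutation p = 0.1). The p of 0.1 is the smallest that 3 against 3 arrays can give, and it remained 0.1 after adjustment over the 3 such ratios computed. The pairs were set up with the values of their genes known. Their ratios restate those values and are no separate support. The sequences of these 3 receptors are related, and their probe sets may take up labelled cDNA of one another, so that their separate values are uncertain.

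The 12 tested genes that flank the cluster, 6 on each side, had differences between -0.25 for Acte1 and 0.21 for Osbpl5 on the log2 scale. None of these 12 passed by limma, and 0 had an unadjusted p under 0.05, with adjusted p of 0.828 or more.

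**Figure D2:**
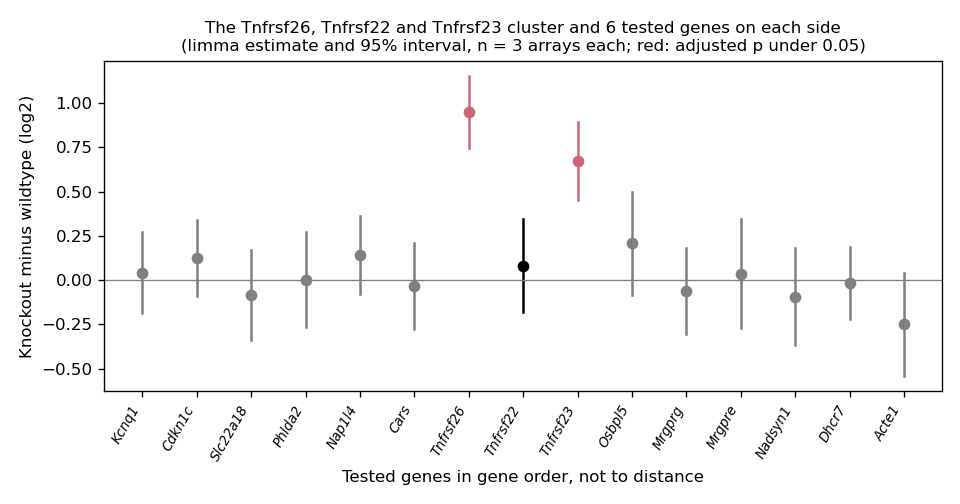
Knockout minus wildtype difference (log2, limma estimate and 95% interval, n = 3 arrays each) for the Tnfrsf26, Tnfrsf22 and Tnfrsf23 cluster and the 6 tested genes on each side, in gene order. Tnfrsf26 and Tnfrsf23 (red) stand above 0.45 over their whole intervals, whereas Tnfrsf22 (black) and the flanking genes (grey) have intervals that include 0.

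The other death receptors did not pass the test. Fas, whose engagement by Fas ligand can kill activated lymphocytes, was at 8.28, 8.21 and 8.31 in wildtype and at 8.36, 8.28 and 8.38 in knockout arrays, a difference of 0.08 with an interval from -0.13 to 0.28 (limma, adjusted p = 0.983). Tnfrsf10b, the signalling TRAIL receptor of the mouse, differed by 0.04 (interval -0.25 to 0.33). Tnfrsf21, also called death receptor 6, differed by 0.22 (interval -0.04 to 0.48) with overlapping values. Markers of macrophages, which can enter a thymocyte sort, were on average higher in the knockout, as Tnfrsf26 and Tnfrsf23 were. The wildtype arrays had a mean of 4.73, 4.60 and 4.72 over all 8 of these markers, and the knockout arrays one of 5.105, 5.0 and 4.740. Knockout replicate 3 was close to wildtype. Lyz2 rose, 1 of the 8, from 5.68, 4.97 and 5.22 in wildtype to 7.03, 6.82 and 6.17 in knockout arrays. Its difference was 1.39 (limma, adjusted p = 0.0256), the largest of the 8. An unadjusted p under 0.05 (limma, 6.91% of all genes) was reached by 3 of the 8, Lyz2 and C1qa as higher and Mpeg1 as lower. C1qa was at 4.66, 4.50 and 4.26 in wildtype and at 5.04, 4.89 and 4.76 in knockout arrays, which do not overlap, but its difference of 0.42 did not pass (limma, adjusted p = 0.325). The values of the other 6 overlapped, with differences of 0.35 for C1qb, 0.31 for Cd68, 0.08 for Csf1r, -0.06 for Adgre1, -0.06 for Fcgr1 and -0.31 for Mpeg1. Csf1r was at 3.59 to 3.96 and Adgre1 at 2.97 to 3.21 on all arrays, under the median of all probe sets. Of the 8 markers, 4 had a mean above that median, namely Lyz2, Cd68, C1qb and Mpeg1. The part of these cells in the 2 rises was not tested.

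Costimulatory receptors of T cells were lower, higher or near 0 by gene. Of these 7, 0 passed the test in either direction (limma, 0.567% of all genes). An unadjusted p under 0.05 was reached by 3 of them (limma, 6.91% of all genes). Tnfrsf9, also known as CD137, is a receptor induced by T cell activation and carried by activated regulatory T cells. Its probe set (10510580) was at 7.98, 8.24 and 8.49 in wildtype and at 7.71, 7.34 and 7.42 in knockout arrays. All knockout values lay below all wildtype values, with wildtype replicate 1 and knockout replicate 1 nearest to each other. The means were 8.23 ± 0.26 and 7.49 ± 0.19 (SD, n = 3 each), a difference of -0.74 with an interval from -1.07 to -0.42 that did not pass (limma, adjusted p = 0.0675). Leaving out wildtype replicate 1 brought Tnfrsf9 past the test as lower (adjusted p = 0.028), and the other fits that left out an array gave 0.0605 to 0.302. It also passed with a prior that followed the mean level (0.0192), with array weights (0.0281), without dim genes (0.0471) and after median centring of the arrays (0.0493). It did not pass with the mean of a gene's probe sets (0.0666), a robust prior (0.068) or further quantile normalization (0.0873). Nor did it pass with the replicate number as a block (0.0984) or with all probe sets in the fit (0.411).

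Tnfrsf4, the receptor OX40, was at 9.30, 9.56 and 9.63 in wildtype and at 9.20, 8.91 and 8.98 in knockout arrays. The genotypes did not overlap, again with the replicates numbered 1 closest. The difference of -0.47 had an interval from -0.73 to -0.20 and did not pass (limma, adjusted p = 0.217, and 0.0511 to 0.763 over the alternatives). Tnfrsf18, the receptor GITR and the neighbour of Tnfrsf4 in the genome, was at 9.37, 9.26 and 9.47 in wildtype and at 9.32, 9.11 and 9.06 in knockout arrays, which overlap. Its difference was -0.20 (interval -0.44 to 0.04, limma, adjusted p = 0.833). The log2 ratio of Tnfrsf4 to Tnfrsf18 within an array was 0.13 ± 0.18 in wildtype and -0.13 ± 0.06 in knockout samples (SD, n = 3 each, exact permutation p = 0.1, the smallest possible). This ratio likewise restates the values of its genes.

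**Figure D3:**
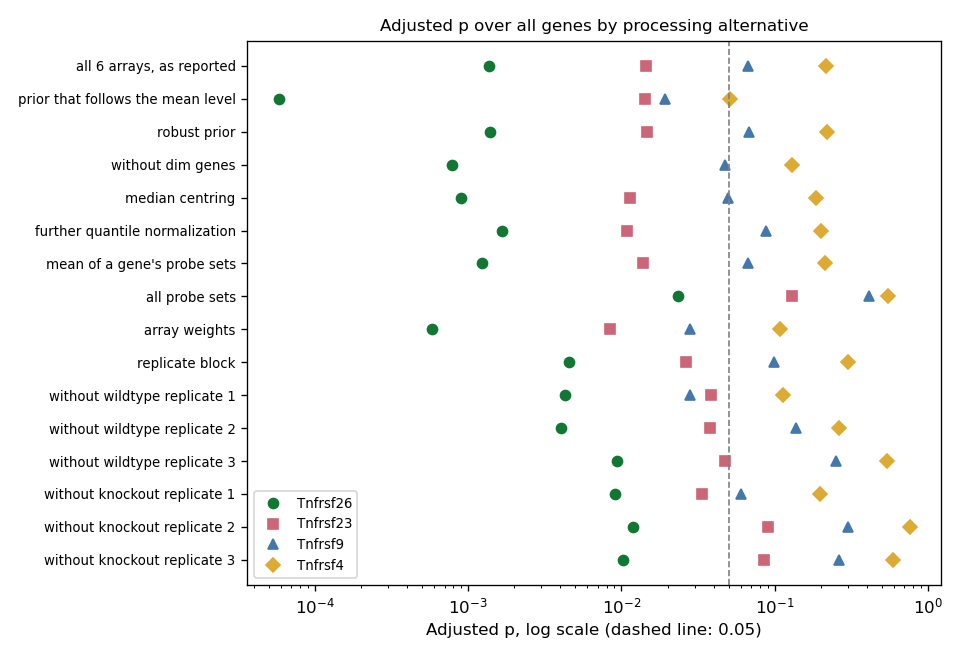
Adjusted p over all genes (log axis, dashed line at 0.05) for 4 members with all 6 arrays and under each of the 15 alternatives. Tnfrsf26 stays below 0.05 throughout, Tnfrsf23 crosses it under 3 alternatives and drops out without dim genes, Tnfrsf9 lies below it under 5, and Tnfrsf4 lies above it throughout.

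Regulatory T cell markers were on average lower in the knockout, as Tnfrsf9 and Tnfrsf4 were. Of 10 markers, all measured, 5 passed as lower (limma, adjusted p under 0.05, 0.216% of all genes) and 1 as higher (0.351%). Their mean per array was 7.33, 8.12 and 8.05 for wildtype and 6.95, 6.94 and 6.97 for knockout samples. Foxp3, Il2ra (difference -1.93), Lrrc32 (-1.86), Ikzf2 (-1.51) and Nt5e (-1.04) fell. Ctla4 (-1.09, limma, adjusted p = 0.0568) and Ikzf4 (-0.45, limma, adjusted p = 0.174) did not pass, but their knockout values all lay below the wildtype values. Izumo1r was the marker that rose (difference 0.92, limma, adjusted p = 0.0434). Gpr83 was also higher, by 0.72, without passing (limma, adjusted p = 0.5), and Capg differed by -0.07. Foxp3, the factor that defines these cells, was at 7.30, 8.29 and 8.33 and at 5.58, 5.36 and 5.69. As for Tnfrsf9 and Tnfrsf4, wildtype replicate 1 was the lowest of its genotype in Foxp3. This order was not particular to them. That array was also the lowest wildtype array in Tnfrsf26, Tnfrsf14 and Tnf, which were higher in the knockout, and it was not the lowest in Tnfrsf18. The span between genotypes was wider for Foxp3, at -2.43, than for Tnfrsf9. The part of regulatory T cells in the lower values of these receptors was not tested, and in sorted bulk cells fewer cells of a type and less RNA per cell cannot be told apart.

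**Figure D4:**
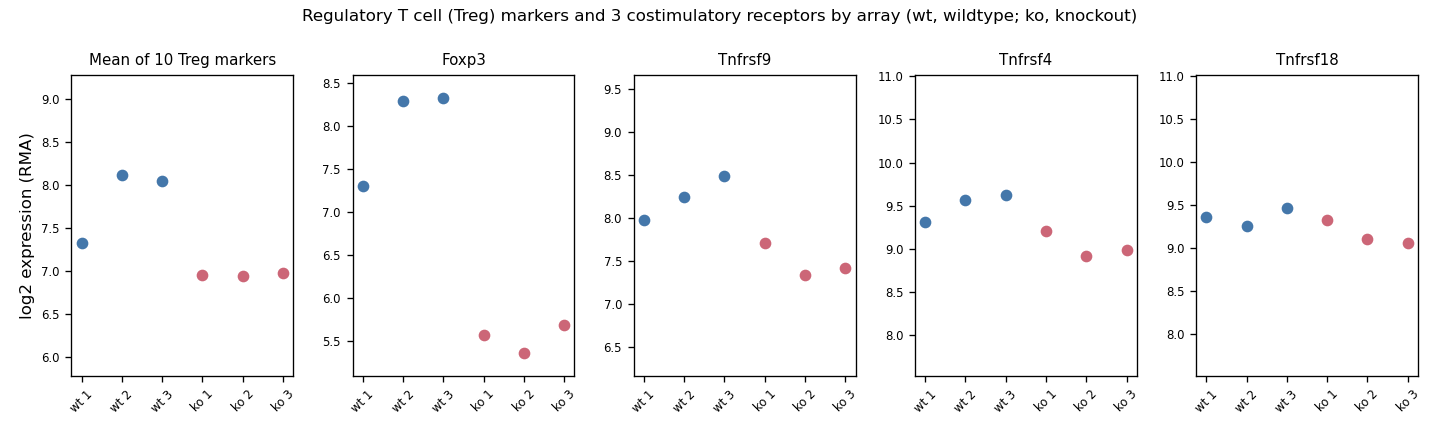
Log2 expression on each of the 6 arrays for the mean of 10 regulatory T cell markers, for Foxp3 and for 3 costimulatory receptors, all panels spanning the same number of log2 units. Wildtype replicate 1 lies nearest to the knockout arrays in the marker mean, in Foxp3, in Tnfrsf9 and in Tnfrsf4, whereas the Tnfrsf18 values of the genotypes overlap.

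Tnfrsf14, also called HVEM, binds the ligand LIGHT and the inhibitory receptor BTLA. It was at 8.52, 8.60 and 8.75 in wildtype and at 8.83, 8.96 and 8.96 in knockout arrays. All knockout values lay above the wildtype values, by a small distance, and the difference of 0.29 (interval 0.07 to 0.52) did not pass (limma, adjusted p = 0.475). Tnfrsf25, the death domain receptor DR3 of T cells, was at 6.20, 6.48 and 6.68 against 6.90, 6.61 and 6.52, values that overlap. Cd27, which is carried by thymocytes and naive T cells, was at 10.48, 10.59 and 10.43 in wildtype and at 10.51, 10.51 and 10.54 in knockout arrays. Its difference was 0.02 with an interval from -0.18 to 0.22. Tnfrsf8, the receptor CD30, was between 4.33 and 4.67 on all arrays and differed by -0.13 (interval -0.35 to 0.09).

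**Figure D5:**
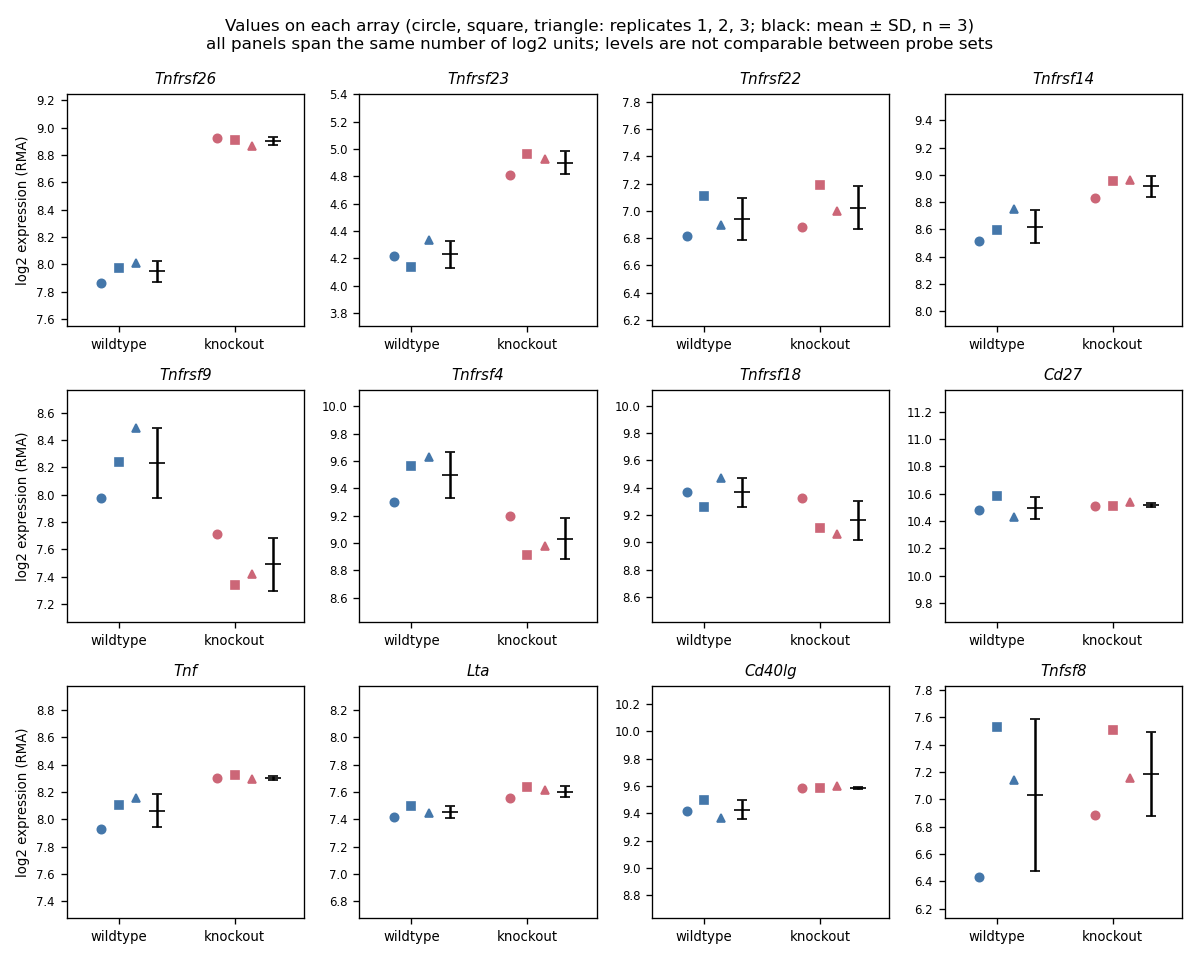
Log2 expression of 12 members on each array, with circles, squares and triangles for replicates 1, 2 and 3 and the mean ± SD of each genotype in black (n = 3); all panels span the same number of log2 units. The genotypes are apart for Tnfrsf26, Tnfrsf23, Tnfrsf14, Tnfrsf9, Tnfrsf4, Tnf, Lta and Cd40lg, and overlap for Tnfrsf22, Tnfrsf18, Cd27 and Tnfsf8.

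Promoter sequence, the 250 bases before each annotated start site, came from RefSeq on GRCm38.p6. Of the 39 members 30 had an entry, with 34 windows between them. Those without one here were Tnfrsf26, Tnfrsf22, Tnfrsf10b, Tnfrsf11b, Cd40, Cd40lg, Cd70, Tnfsf4 and Tnfsf9. For Tnfrsf9 a pair of start sites was listed. Each window was searched on both strands for TGANTCA, the core shared by the recognition elements of AP-1 and of BACH-Maf dimers, for TGCTGA, the Maf half-site, and for the kappa B motif of NF-kB. The letters of TGANTCA and TGCTGA can overlap where they stand in 1 composite element. The windows of Tnfrsf23, Tnfrsf9 and Tnfrsf4 are shown because Tnfrsf23 rose and the pair of costimulatory receptors lay lowest, and capitals mark the matches.
Tnfrsf23, chr7:143685876-143686125, minus strand: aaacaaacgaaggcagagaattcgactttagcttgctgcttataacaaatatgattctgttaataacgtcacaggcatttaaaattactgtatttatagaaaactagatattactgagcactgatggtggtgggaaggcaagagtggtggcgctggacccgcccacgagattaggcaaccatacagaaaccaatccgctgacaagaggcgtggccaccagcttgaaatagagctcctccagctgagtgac
Tnfrsf9, upstream start site, chr4:150919905-150920154, plus strand: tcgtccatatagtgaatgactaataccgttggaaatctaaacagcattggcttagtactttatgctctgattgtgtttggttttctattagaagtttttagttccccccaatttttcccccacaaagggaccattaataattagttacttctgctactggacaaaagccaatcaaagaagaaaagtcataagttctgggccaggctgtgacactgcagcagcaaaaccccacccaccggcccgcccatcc
Tnfrsf9, downstream start site, chr4:150927749-150927998, plus strand: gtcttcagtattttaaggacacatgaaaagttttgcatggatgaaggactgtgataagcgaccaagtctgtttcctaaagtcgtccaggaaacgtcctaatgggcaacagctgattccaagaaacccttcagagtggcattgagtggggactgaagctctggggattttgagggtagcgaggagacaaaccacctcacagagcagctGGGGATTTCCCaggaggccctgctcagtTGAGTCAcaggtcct
Tnfrsf4, chr4:156013445-156013694, plus strand: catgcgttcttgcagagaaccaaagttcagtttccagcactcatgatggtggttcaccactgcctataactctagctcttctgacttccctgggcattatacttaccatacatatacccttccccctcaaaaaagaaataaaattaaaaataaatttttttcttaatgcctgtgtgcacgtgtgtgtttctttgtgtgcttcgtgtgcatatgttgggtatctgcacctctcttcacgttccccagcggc

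The window at the downstream start site of Tnfrsf9 held a TGANTCA match that begins 15 bases before the start and a pair of kappa B matches, shifted by 1 base, that begin at 43 and 42 bases before it. The windows of Tnfrsf23, of Tnfrsf4 and of the upstream start site of Tnfrsf9 held 0 matches to the 3 motifs, which says only that these letters are not in these windows. TGANTCA was found in 6.75% of all 32851 promoter windows and in 5 of the 34 member windows (Fas, Tnfrsf8, Tnfrsf9, Tnfsf13b and Tnfsf14). TGCTGA was found in 16.1% of all windows and in 3 member windows (Cd27, Tnfrsf13b and Tnfsf8). The kappa B motif was found in 7.25% of all windows and in 4 member windows (Ltb, Tnfrsf25, Tnfrsf8 and Tnfrsf9). None of Fas, Tnfrsf8, Tnfsf13b, Tnfsf14, Cd27, Tnfrsf13b, Tnfsf8, Ltb and Tnfrsf25 passed the test between genotypes.

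Receptors for TNF and lymphotoxin did not pass, 0 of 3 (limma; 0 at an unadjusted p under 0.05). Tnfrsf1a, the widely expressed TNF receptor with a death domain, was between 8.48 and 8.71 on all arrays and differed by 0.07 (interval -0.15 to 0.28). Tnfrsf1b, the TNF receptor of activated and regulatory T cells, was at 7.82, 8.30 and 8.25 in wildtype and at 8.25, 8.23 and 8.18 in knockout arrays. Wildtype replicate 1 stood below the other 5 arrays, which lay between 8.18 and 8.30. The difference was 0.10 (interval -0.19 to 0.39), and -0.06 without that array. Ltbr, the lymphotoxin beta receptor of stromal cells, was between 4.99 and 5.26 and differed by -0.05.

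Of the receptors RANK (Tnfrsf11a) and its soluble decoy counterpart osteoprotegerin (Tnfrsf11b), which stromal cells express, neither passed. Tnfrsf11a was at 4.76, 4.04 and 4.48 in wildtype and at 4.16, 3.99 and 4.14 in knockout arrays, which overlap and lie below the median of all probe sets (difference -0.33, interval -0.69 to 0.03). The difference was -0.16 without wildtype replicate 1 and -0.52 without wildtype replicate 2, and did not pass in either fit. Tnfrsf11b differed by 0.11. Among the family's receptors of B cells, 0 of 4 passed. Cd40 was between 4.88 and 5.18 (difference -0.06, interval -0.30 to 0.17), and Tnfrsf13b, Tnfrsf13c and Tnfrsf17, receptors for the B cell survival factor BAFF or its relative APRIL, differed by -0.02, -0.20 and -0.04. The B cell markers Cd79a, Cd79b, Ms4a1, Pax5 and Blk lay between 2.61 and 5.67. The remaining receptors Tnfrsf12a, which binds TWEAK, Eda2r, which binds an ectodysplasin, and Tnfrsf19 differed by 0.17, 0.16 and 0.04, and 0 of these 3 passed.

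Ligands did not pass in either direction, 0 of 14 (limma, 0.567% of all genes), with 1 at an unadjusted p under 0.05 (6.91% of all genes). Differences above 0 were found for 12 of the 14 ligands and for 9203 of all 19938 genes. The median difference was 0.13 over the ligands and -0.01 over all genes. Tnf was at 7.93, 8.11 and 8.16 in wildtype and at 8.30, 8.32 and 8.29 in knockout arrays. All knockout values were above the wildtype values, with a difference of 0.24 (interval 0.03 to 0.46, limma, adjusted p = 0.635). Lta, the soluble lymphotoxin encoded next to Tnf, was at 7.42, 7.50 and 7.45 against 7.56, 7.63 and 7.61, also without overlap. Its difference was 0.15 (interval -0.05 to 0.35). Ltb, which anchors lymphotoxin to the membrane and is the neighbour of Tnf on the other side, was at 10.53, 10.70 and 10.71 against 10.66, 10.72 and 10.72, which overlap, with a difference of 0.05 (interval -0.16 to 0.26).

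Of the ligands by which CD4 thymocytes act on the medulla, Cd40lg and Tnfsf11 did not pass the test either. Cd40lg was at 9.42, 9.50 and 9.37 in wildtype and at 9.59, 9.58 and 9.60 in knockout arrays. The knockout arrays lay close together above the wildtype arrays, and the difference of 0.16 (interval -0.04 to 0.36) did not pass (limma, adjusted p = 0.852). Tnfsf11, RANK ligand, was at 7.93, 7.44 and 7.73 in wildtype and at 7.88, 7.60 and 7.66 in knockout arrays, values that overlap around a difference of 0.01 (interval -0.29 to 0.32). Tnfsf8, the ligand of CD30, was at 6.43, 7.53 and 7.14 in wildtype and at 6.89, 7.51 and 7.16 in knockout arrays. Among the members it had the widest spread within wildtype (SD 0.56), and its interval, -0.40 to 0.71, leaves a change of either sign possible. Wildtype replicate 1 was again the lowest array.

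Of the remaining ligands, TRAIL (Tnfsf10) was between 5.80 and 6.30 and differed by -0.13 (interval -0.47 to 0.20). Another 7 had means at or below the median of all probe sets. Their differences were 0.15 for Tnfsf4 (OX40 ligand), 0.19 for Tnfsf9 (ligand of Tnfrsf9), 0.05 for Cd70 (ligand of Cd27), 0.01 for Tnfsf18 (GITR ligand), -0.04 for Tnfsf14 (LIGHT), 0.13 for Tnfsf15 (ligand of Tnfrsf25) and 0.13 for Tnfsf13b (BAFF). That of Tnfsf9 ranged from 0.035 without wildtype replicate 3 to 0.34 without knockout replicate 1, and did not pass in any fit without 1 array. These ligands are known mainly from antigen-presenting, stromal and activated cells, and 1 of them, Tnfsf13b, had all 3 knockout values above the wildtype values, at 3.72 to 3.83 against 3.63 to 3.69.

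Genes that act downstream of TNF receptors, the TRAF adaptors, death domain adaptors, kinases and NF-kB factors, were counted from a list of 51, of which 47 were measured. By limma over all genes 1 was higher (0.351% of all genes) and 0 were lower (0.216%). At an unadjusted p under 0.05, 2 were higher (3.04% of all genes) and 2 lower (3.87%). All knockout values lay above all wildtype values for 3 of the 47 (5.13% of all genes) and below them for 4 (6.57%). The median difference was 0.01. Map3k5, the kinase ASK1 that links TRAF2 to stress-activated kinases, rose. It was at 6.55, 7.05 and 6.88 in wildtype and at 7.59, 7.66 and 7.71 in knockout arrays, without overlap. The difference was 0.82 (interval 0.54 to 1.11, limma, adjusted p = 0.0208). Its call was lost without wildtype replicate 3 or any 1 of the knockout arrays, with adjusted p from 0.0578 to 0.107, and with all probe sets in the fit (0.224).

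The genes of this list that came next in order of p are given as values, and none of them passed the test. Bcl3, an atypical IkB protein, was at 9.20, 9.18 and 9.23 in wildtype and at 8.91, 8.87 and 8.83 in knockout arrays, which do not overlap, a difference of -0.33 (limma, adjusted p = 0.243). Birc3, an inhibitor of apoptosis recruited to TNF receptor complexes, differed by -0.20 and Nfkbia, the IkB alpha protein induced by NF-kB, by -0.19, both without overlap between the genotypes. Tradd, the death domain adaptor of Tnfrsf1a and Tnfrsf25, differed by 0.33 with overlapping values, and Traf5, an adaptor of costimulatory receptors, differed by -0.25 with overlapping values. Adjusted p (limma) of Tradd, Birc3, Traf5 and Nfkbia was 0.649 to 0.804. Traf5 and Nfkbia did not reach an unadjusted p under 0.05 (limma).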

How the data were processed

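The deposited values are log2 expression, 1 per probe set and array; RMA, robust multi-array averaging, and Partek are named in the submitters' processing notes without a version. The log2 scale was read from the values (1.09 to 13.18). No other step or genome build is named there. Because RMA makes the distributions of arrays alike, a change common to all genes is not visible.

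Symbols came from the platform's annotation. Of 35556 probe sets, 21789 had 1 symbol, and the probe set with the highest mean stood for its gene, which gave 19938 genes. All 39 members matched a RefSeq table of GRCm38.p6, used for gene order and promoter sequence. Knockout minus wildtype was fitted with limma 3.58.1 (lmFit, eBayes, two-sided) in R 4.3.3 on 6 arrays, adjusted by Benjamini-Hochberg over all genes, threshold 0.05. The procedure was tested on simulated data. Ratios within arrays were compared by exact permutation (scipy 1.17.1). Members and lists were chosen with earlier results of these data known. Values are given for members that passed, had an unadjusted p under 0.05 or differed by at least 0.3, and for a list of T cell members whatever their values; Tnfrsf22 was added after its values were seen.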

Additional observations from a re-analysis of the deposited data

How the results depend on the processing

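With 3 arrays per genotype, counts moved with single arrays. Fits without 1 array each gave 1 to 2 members higher and 0 to 1 lower, 29 to 82 genes higher (70 with all arrays) and 18 to 66 lower (43), with 0 to 1 signalling genes higher and 0 to 0 lower; the fewest genes of each came without wildtype replicate 3. With all probe sets in the fit, 1 member, 0 signalling genes, 29 probe sets in all were higher and 8 lower. Without dim genes 1 member was higher, since Tnfrsf23 was not tested there. In that setting, with a prior that followed the mean level, after median centring and with array weights, 1 member, Tnfrsf9, was lower. That prior also gave 78 genes lower and 1 signalling gene lower. Whether same-numbered arrays shared hosts could not be decided from their deviations from the genotype means. These correlated at 0.213, 0.113 and -0.065 for same-numbered arrays and at -0.257 to 0.172 for the others. With the replicate number as a block, 79 genes were higher and 55 lower, and 2 members higher and 0 lower; Edaradd, outside the rule for members, passed there too (limma, adjusted p = 0.0295). The 3 lost calls of single members were those of Tnfrsf23 given above. Of 412 values of 28 named members under the 15 alternatives, 19 changed sign, all of members that did not pass. Without single arrays, the ranges were -0.013 to 0.065 for Cd27, -0.0047 to 0.10 for Cd70, -0.0037 to 0.083 for Ltb, -0.10 to 0.14 for Tnfrsf10b, -0.057 to 0.19 for Tnfrsf1b, -0.0015 to 0.17 for Tnfrsf22, -0.12 to 0.13 for Tnfsf11, -0.11 to 0.061 for Tnfsf14, -0.12 to 0.15 for Tnfsf18 and -0.15 to 0.40 for Tnfsf8. With array weights Tnfrsf10b was at -0.034, Tnfsf11 at -0.064 and Tnfsf18 at -0.089. The lowest weight there was that of wildtype replicate 2 (0.399) and the highest that of knockout replicate 2 (1.616).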

Other observations

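Some relatives of the family fall outside the rule for members, and 0 of 7 passed (limma, 0.567% of all genes). Of these 7, 2 had an unadjusted p under 0.05 (limma, 6.91% of all genes). Edaradd, the adaptor of the ectodysplasin receptor, was at 5.62, 6.01 and 5.33 in wildtype replicates 1 to 3 and at 6.34, 7.96 and 7.75 in knockout replicates 1 to 3. The genotypes did not overlap, but knockout replicate 1 stood well below the other knockout arrays, and the difference of 1.70 did not pass (limma, adjusted p = 0.089). Without knockout replicate 1 it was 2.20 (adjusted p = 0.000918), and the other fits without an array gave adjusted p from 0.123 to 0.365. It passed under 3 of the 9 other alternatives, among them array weights (adjusted p = 0.0326) and a prior that followed the mean level (0.0296). Tnfaip8, an apoptosis regulator induced by TNF, was at 7.58, 7.43 and 7.33 against 7.72, 7.59 and 7.77. Its difference was 0.25 (limma, adjusted p = 0.662). Fas ligand (Fasl) was between 4.91 and 5.10 on all arrays and differed by 0.06, Relt by 0.14, Ngfr by -0.06, Edar by 0.02 and its ligand Eda by -0.21. The probe set shared by Tnfsf12, Tnfsf13 and Tnfsfm13 was at 4.51, 4.12 and 4.26 in wildtype and at 4.40, 4.37 and 4.18 in knockout arrays, a difference of 0.02.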
